A study of Mus musculus with 2 samples.

Results

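The members described here are 10 genes of bone morphogenetic protein (BMP) signalling, taken by symbol from the deposited gene tables, out of 43346 genes measured. They comprise 5 ligands (Bmp2, Bmp4, Bmp5, Bmp6 and Bmp7), 3 receptors (Bmpr1a, Bmpr1b and Bmpr2) and 2 antagonists (Nog and Chrd), and each matched 1 Ensembl gene of protein-coding type. The tissue was midbrain of healthy B6NCrl mouse embryos at 13.5 days, male and female tissue pooled, with no further genotype or treatment named in the labels. There is 1 group with 2 libraries, biological replicates 1 and 2, each from 10 ng of total RNA over 200 nt with spike-in RNA. No condition, age or other tissue was compared, so the questions are how high each member stood, how the members stood to each other, and how far the libraries differed.

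BMP ligands are secreted dimers of the transforming growth factor beta superfamily. They bind a complex of type I and type II receptor kinases, which phosphorylates the transcription factors Smad1, Smad5 and Smad9, and these enter the nucleus with Smad4. Noggin (Nog) and chordin (Chrd) bind the ligands outside the cell and keep them from their receptors. In the embryonic neural tube BMPs are known as signals of the roof plate and surface ectoderm that pattern dorsal cells, and in the head they also come from meninges and choroid plexus.

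The type I receptor Bmpr1a stood highest of the 10 members, and the leading transcripts of Bmpr1a and of its relative Bmpr1b start at unlike sequences. The 250 bases before the RefSeq starts (build GRCm38.p6, minus strand) are shown because they set the abundant receptor beside the scarce one, and because the deposited tables divided Bmpr1b among several starts. Capitals mark the GC box GGGCGG, the TATA motif TATAAA, the box CCAAT or the E-box CACGTG on either strand, where neighbouring matches can overlap.
Bmpr1a, chr14:34502547-34502796: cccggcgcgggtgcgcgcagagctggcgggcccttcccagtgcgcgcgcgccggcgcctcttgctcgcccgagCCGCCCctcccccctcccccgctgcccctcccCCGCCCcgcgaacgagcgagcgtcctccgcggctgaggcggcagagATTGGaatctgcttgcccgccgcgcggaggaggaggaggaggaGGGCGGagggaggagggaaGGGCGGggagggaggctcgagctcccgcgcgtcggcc
Bmpr1b, start of the leading transcript, chr3:141982265-141982514: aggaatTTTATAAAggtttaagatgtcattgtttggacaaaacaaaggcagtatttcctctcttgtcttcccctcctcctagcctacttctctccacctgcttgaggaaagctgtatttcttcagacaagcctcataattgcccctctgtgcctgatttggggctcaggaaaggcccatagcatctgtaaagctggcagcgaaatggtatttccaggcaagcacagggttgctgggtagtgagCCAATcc
Bmpr1b, another start, chr3:141931589-141931838: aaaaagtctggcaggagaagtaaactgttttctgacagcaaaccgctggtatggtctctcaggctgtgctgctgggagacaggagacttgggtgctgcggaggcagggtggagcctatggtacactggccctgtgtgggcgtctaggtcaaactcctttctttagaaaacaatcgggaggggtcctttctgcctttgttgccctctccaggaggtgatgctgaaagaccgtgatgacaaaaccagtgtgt
The Bmpr1a window held 36 CpG dinucleotides, 78.8% G and C, 4 matches to GGGCGG and 1 to CCAAT. Its RefSeq start lies 141 bases inside the annotated leading transcript, so part of the window is transcribed in that model. The window before the leading Bmpr1b transcript held 1 CpG, 46.8% G and C, 2 overlapping matches to TATAAA and 1 to CCAAT. The other Bmpr1b window held 5 CpG, 52.8% G and C and none (0) of the 4 motifs. Of 3 Bmpr1b windows the 1 not printed overlaps this one. Over 32851 windows of this length in the RefSeq table, the median was 6 CpG and 52.4% G and C, and 32.7% held GGGCGG, 12.4% TATAAA, 33.8% CCAAT and 6.02% CACGTG. Among the other members with a window, Chrd and Bmp6, both of low level, held 28 and 22 CpG. Bmpr2, of higher level, held 22, and Bmp4 and Bmp5, of low level, held 11 and 4. The contrast printed here is thus not a rule over the members, and a link of window to level was not tested. These matches describe the letters in each window and are not tested sites.

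All 10 members reached 1 TPM (transcripts per 1e+06, a level scaled to transcript length and library) in both libraries, a bar that 34.3% of all 43346 genes passed. Values are TPM from here, with the SD of n = 2. Most members stood low among the 14878 genes past that bar, with 2.43% of them below the lowest member, Bmp2, and 48.8% below the highest, Bmpr1a. The median over members was 2.72 TPM in replicate 1 and 2.68 TPM in replicate 2, against 16.6 and 16.3 TPM over all genes past the bar.

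**Figure D1:**
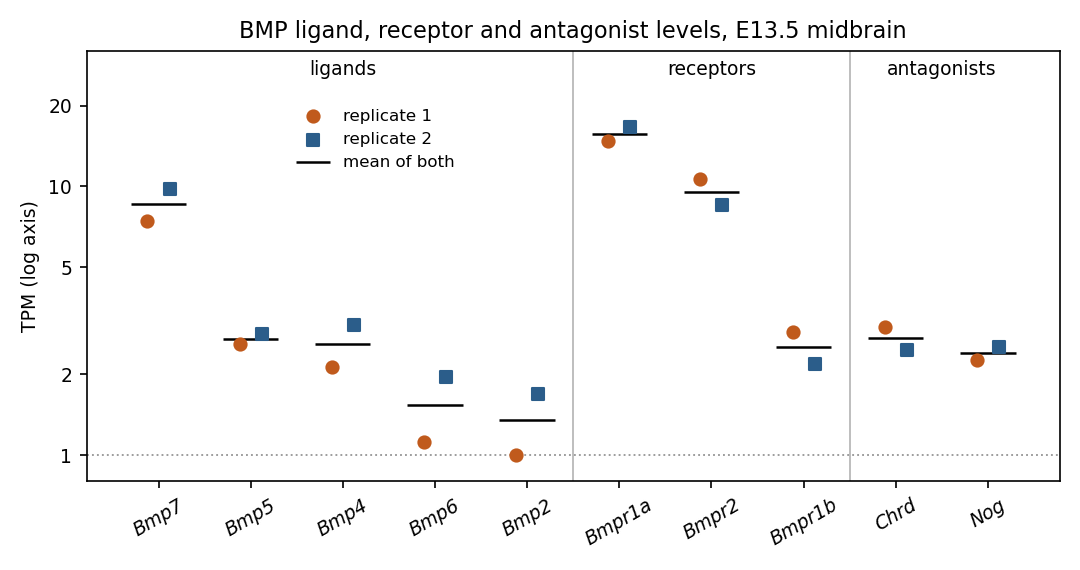
TPM (log axis) of the 5 ligands, 3 receptors and 2 antagonists, with a circle for replicate 1, a square for replicate 2, a line for their mean and a dotted line at 1 TPM. Bmpr1a, Bmpr2 and Bmp7 lie between 7.44 and 16.62 TPM in both libraries, and the other 7 members between 1 and 3.06 TPM.

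Among the ligands Bmp7 led. The ligand genes lie (GRCm38) at chr2:133552159-133562885 (Bmp2), chr14:46383520-46390669 (Bmp4), chr9:75775364-75900310 (Bmp5), chr13:38345107-38500302 (Bmp6) and chr2:172868012-172940321 (Bmp7). Bmp7, which belongs to the 60A-like subgroup with Bmp5 and Bmp6 and is needed for eye and kidney development in the mouse, had 7.44 TPM in replicate 1 and 9.79 TPM in replicate 2 (8.62 ± 1.66). It made up 52.1% of the TPM of the 5 ligands in replicate 1 and 50.7% in replicate 2. Bmp5, whose loss causes the short ear phenotype, had 2.58 and 2.82 TPM (2.70 ± 0.170). Bmp4, a ligand of dorsal patterning and early mesoderm, had 2.13 and 3.06 TPM (2.60 ± 0.658). These neighbours were close, whereas the last pair was lower. Bmp6, known in the adult as a regulator of iron metabolism, had 1.12 and 1.96 TPM (1.54 ± 0.594). Bmp2, the closest relative of Bmp4, had 1.00 and 1.69 TPM (1.35 ± 0.488). Replicate 2 was the higher library for every ligand.

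Of the receptors Bmpr1a was highest and Bmpr1b lowest. They lie at chr14:34410734-34503341 (Bmpr1a), chr3:141837136-142169425 (Bmpr1b) and chr1:59763400-59879014 (Bmpr2). Bmpr1a (ALK3), the broadly expressed type I receptor, had 14.78 TPM in replicate 1 and 16.62 TPM in replicate 2 (15.7 ± 1.30). Bmpr2, the type II receptor that phosphorylates the type I partner, had 10.63 and 8.51 TPM (9.57 ± 1.5). Bmpr1b (ALK6), a type I receptor known from cartilage and neural tissue, had 2.86 and 2.18 TPM (2.52 ± 0.481). Bmpr1a thus held 83.8% of the TPM of the pair of type I receptors in replicate 1 and 88.4% in replicate 2. Bmpr1a was higher in replicate 2, while Bmpr2 and Bmpr1b were higher in replicate 1.

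The antagonists, Nog at chr11:89300638-89302332 and Chrd at chr16:20733127-20742384, lay beside the low ligands. Chrd had 3.0 TPM in replicate 1 and 2.46 TPM in replicate 2 (2.73 ± 0.382), and Nog had 2.25 and 2.53 TPM (2.39 ± 0.198). The libraries ordered this pair differently, Chrd above Nog in replicate 1 and just below it in replicate 2. Summed over each role, receptors stood at 28.3 and 27.3 TPM, ligands at 14.3 and 19.3 TPM, and antagonists at 5.25 and 4.99 TPM in replicates 1 and 2. The sum for receptors over that for ligands was 1.98 in replicate 1 and 1.41 in replicate 2. Receptors over antagonists stood at 5.38 and 5.47. These sums count RNA, not protein.

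Bmpr1a stood alone at the top, Bmpr2 and Bmp7 came next, and the other 7 members lay below both. All 45 pairs were compared within each library as log2 ratios of TPM + 0.1 with limma's moderated test, two-sided, with Benjamini-Hochberg adjustment over all genes at 0.05. In the fit of every gene against 1 member at a time 23 pairs passed, against 86.2% of all comparisons of a gene with a member, and with the spread estimated gene by gene 32 passed, against 89.2%. The same 23 pairs passed in both. By member, the share of all genes that differed from it in the fit against 1 member was 78.3% for Bmp2, 83.7% for Bmp4, 92.6% for Bmp5, 76.2% for Bmp6 and 83.7% for Bmp7. It was 90.1% for Bmpr1a, 87.7% for Bmpr1b, 88.0% for Bmpr2, 92.2% for Nog and 90.1% for Chrd. The p-values below come from the fit with the spread estimated gene by gene, and they rest on these 2 libraries only. In that fit each gene's spread between the libraries is moderated over all genes tested. The spreads of the 2 genes of a pair are then added as if independent. The SE and interval therefore do not use the pairing within a library and can differ from the spread of the ratio itself. They cover spread between the libraries only. An error in a gene's level that both libraries share, as from the transcript length used, is not in them. A small p-value here thus shows that a ratio repeats, not that the 2 genes' levels are free of such error.

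Bmpr1a stood above each of the other 9 members in both fits. It exceeded Bmpr2 by a log2 ratio of 0.71 ± 0.13 (SE, n = 2, limma adjusted p = 0.000962), a 1.64-fold ratio with a 95% interval of 1.33 to 2.03. The log2 ratios were 0.47 in replicate 1 and 0.96 in replicate 2, farther apart than that SE conveys. Over Bmp7 the log2 ratio was 0.87 ± 0.15 (adjusted p = 0.000489). Over its relative Bmpr1b the level was 6.07-fold, with a 95% interval of 4.53 to 8.13 (adjusted p = 1.64e-06) and log2 ratios of 2.33 and 2.87 in replicates 1 and 2. Over Bmp2, the lowest member, it was 11.2-fold.

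Bmpr2 and Bmp7 shared the next place. Bmpr2 over Bmp7 gave log2 ratios of 0.51 in replicate 1 and -0.20 in replicate 2, so the order changed with the library (adjusted p = 0.378, 1.11-fold, 95% interval 0.862 to 1.44). Bmpr2 exceeded Bmpr1b by 3.70-fold (adjusted p = 2.09e-05). Among the ligands Bmp7 exceeded Bmp5 by 3.09-fold (adjusted p = 5.02e-05), Bmp4 by 3.25-fold (7.63e-05), Bmp6 by 5.45-fold (2.22e-05) and Bmp2 by 6.15-fold (1.38e-05). It also lay 3.07-fold above Chrd and 3.47-fold above Nog.

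Chrd, Bmp5, Bmp4, Bmpr1b and Nog could not be ordered. Their 10 pairs had log2 ratios between 0.01 and 0.18, and none (0) passed in either fit, with 0 at an unadjusted p under 0.05. The widest interval among them, Bmp4 over Bmpr1b, ran from 0.696 to 1.5-fold. Bmp6 and Bmp2 lay below these 5, by 1.57 to 2.01-fold. Of these 10 pairs 9 passed with the spread estimated gene by gene (adjusted p up to 0.0376), all but Nog over Bmp6 (0.0501), and none (0) passed in the fit against 1 member, where the adjusted p ran from 0.0960 to 0.327. Bmp6 over Bmp2 was 1.13-fold (95% interval 0.681 to 1.87).

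**Figure D2:**
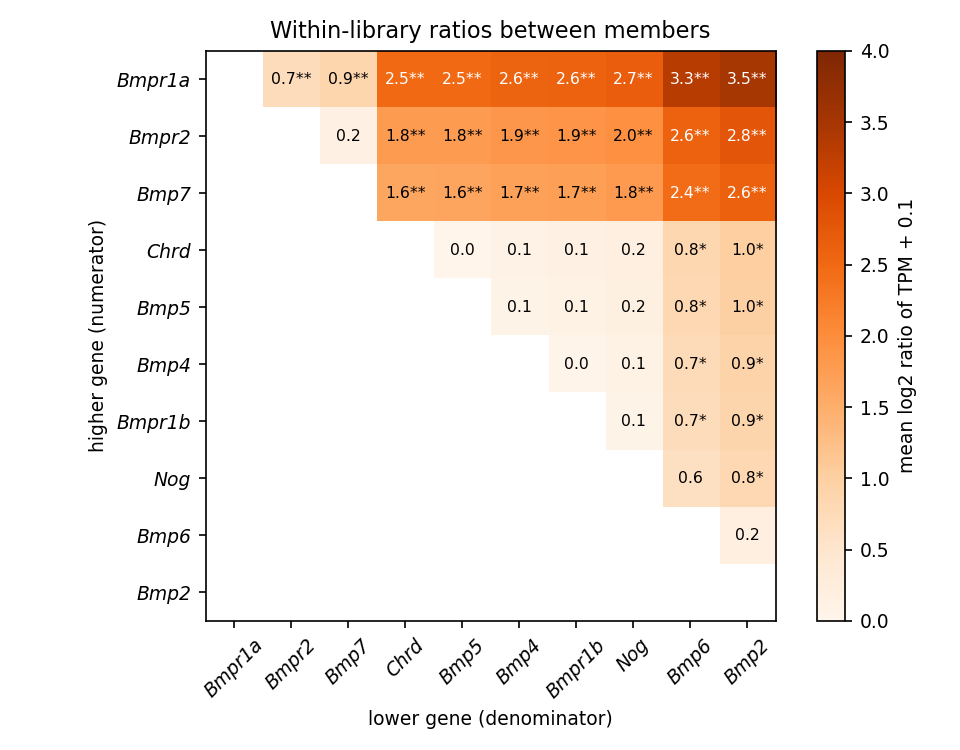
Mean log2 ratio of TPM + 0.1 of the row gene over the column gene, with members in order of mean TPM and darker cells for larger ratios. Cells with ** passed in both fits, and cells with * passed only with the spread estimated gene by gene; the 3 top rows carry all 23 pairs of the first kind, and the block from Chrd to Nog carries no mark.

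Reads behind the members ranged from 52 for Bmp6 to 2578 for Bmpr2 in replicate 1 and from 108 for Nog to 2763 for Bmpr2 in replicate 2. With 1 library on each side the difference between libraries has no test, and exact 95% intervals cover counting error only. No member (0 of 10) differed at least 2-fold, a bar passed by 0.724% of the 14361 genes averaging 50 reads or more, 0.216% higher in replicate 1 and 0.508% higher in replicate 2.

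All 5 ligands had fewer reads in replicate 1 than in replicate 2 after scaling, and 7313 of the 14361 genes did so too. The farthest were Bmp6 and Bmp2. Bmp6 had 52 reads in replicate 1 and 121 in replicate 2, a scaled ratio of 0.558 (0.393 to 0.775), and Bmp2 had 69 and 156 reads, a ratio of 0.574 (0.424 to 0.763). These 2 were the members past 1.5-fold, both higher in replicate 2, as were 2.06% of genes, with 1.25% higher in replicate 1 and 3.31% in either direction. Bmp7, with 479 and 750 reads, had a ratio of 0.825 (0.734 to 0.927). For Bmp4 (0.830, 0.622 to 1.10), Bmp5 (0.888, 0.735 to 1.07) and Nog (0.863, 0.630 to 1.17) the interval held 1.

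The receptors were divided, and Chrd was higher in replicate 1. Bmpr2, with 2578 reads in replicate 1 and 2763 in replicate 2, had a scaled ratio of 1.21 (1.14 to 1.27), and Bmpr1b, with 258 and 265 reads, 1.26 (1.06 to 1.5). Chrd stood at 1.18 (0.970 to 1.44) and Bmpr1a at 0.896 (0.842 to 0.954).

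**Figure D3:**
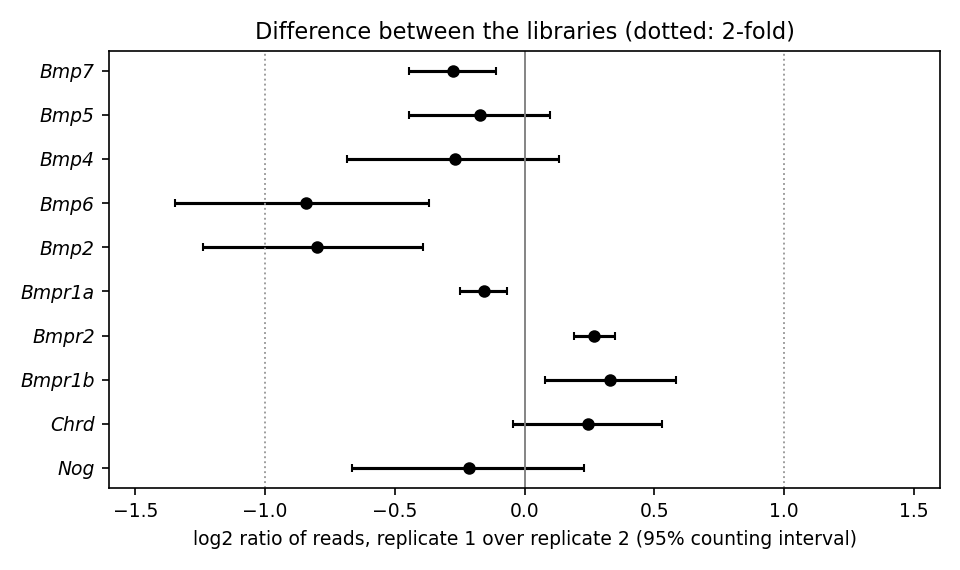
Log2 ratio of scaled reads, replicate 1 over replicate 2, for each member, with bars for the exact 95% counting interval and dotted lines at 2-fold. The 5 ligands at the top lie left of 0, Bmp6 and Bmp2 farthest, and Bmpr2 and Bmpr1b lie right of 0 with their intervals.

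Several marker lists, not only those of cells known to make BMPs, lay lower in replicate 1 along with the ligands, and others did not. Sums are in TPM, whereas markers are called lower or higher by scaled reads, however small the difference. The TPM include spike-ins, 5.36% of the total in replicate 1 and 9.39% in replicate 2, which lowers gene TPM more in replicate 2. The scaled reads leave spike-ins out, so small TPM differences that go the other way are not read as differences in level. Of 7 choroid plexus markers 6 were detected, with a summed level of 94.5 TPM in replicate 1 and 153 TPM in replicate 2. Most of this sum was Ttr (61.8 and 117 TPM). All 7 were lower in replicate 1, and none (0) of the 7 was at 0. Clic6 (1.00 and 2.46 TPM) was more than 2-fold lower, while Otx1 had a scaled ratio of 0.996 and was higher in replicate 1 by TPM (19.0 and 18.4). Of 10 dorsal midline and roof plate markers 8 were detected (71.9 and 83.7 TPM summed), and Wnt1 (3.26 and 6.71 TPM), Rspo1 (2.90 and 5.98) and Wnt3a (0.56 and 2.32) were each more than 2-fold lower in replicate 1. Of the 9 with enough reads 5 were lower and 4 higher in replicate 1. All 10 meningeal markers were detected (309 and 375 TPM summed), 9 of them lower in replicate 1. The 7 floor plate markers (61.9 and 103 TPM summed) were all lower in replicate 1. Shh (1.14 and 2.70 TPM), Foxa2 (3.29 and 7.14) and Corin (1.38 and 3.17) were more than 2-fold lower. The median log2 ratio of this list was -0.88, against -0.50 for the roof plate list. The 8 endothelial markers summed to 137 and 145 TPM and were all lower in replicate 1 by scaled reads. By TPM Cdh5 (9.97 and 9.85) and Esam (27.4 and 27.0) were slightly higher there. Of the 8 midbrain and forebrain identity genes 7 were lower in replicate 1. Of 8 cartilage, muscle and skin markers 2 were detected, Col2a1 (31.5 and 44.6 TPM) and Sox9 (58.5 and 65.6), both lower in replicate 1. Of 8 neuronal markers 6 were higher in replicate 1 (3448 and 3235 TPM summed). Pericytes, neural progenitors and microglia with blood were mixed, each with 3 of 8 markers higher in replicate 1. The part of these lists in the ligand differences was not tested. In bulk tissue fewer cells of a type and less RNA per cell cannot be told apart. The midbrain and forebrain identity genes were detected in 8 of 8 cases and Hox genes of hindbrain and cord in 0 of 8.

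Every member kept its leading transcript, as the deposited transcript tables assign abundance. Of all 9965 detected genes with at least 2 transcripts, 9.13% had leading transcripts that differed. Bmp2, Bmp6 and Nog have 1 annotated transcript in these tables and could not differ, which leaves 7 members with 2 or more. Bmpr2 gave 92.6% of its abundance to ENSMUST00000087435 in replicate 1 and 93.0% in replicate 2, and Bmpr1a gave 95.6% and 91.1% to ENSMUST00000049005. Chrd gave 89.4% and 87.8% to ENSMUST00000007171. These 3 leading transcripts are protein-coding and their shares moved by less than 5 percentage points.

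Bmp7 and Bmp4 differed more between the libraries. Bmp7 gave 86.6% in replicate 1 and 73.8% in replicate 2 to the coding transcript ENSMUST00000009143, and the rest, 13.4% and 26.2%, to ENSMUST00000137247, which is annotated as a retained intron. Bmp4 gave all (100%) of its 84 reads to ENSMUST00000074077 in replicate 1, but 49.3% of its abundance in replicate 2, where the coding ENSMUST00000100676 took 37.7% and the retained intron ENSMUST00000135408 took 13.1%. By the posterior means in the same tables the Bmp4 shares of ENSMUST00000074077 were 69.9% and 49.2%, a smaller gap. The length that scales Bmp4 was 2064 nt in replicate 1 and 1700 nt in replicate 2. The log2 ratio of replicate 1 over replicate 2 for Bmp4 was -0.50 by TPM + 0.1 and -0.27 by scaled reads.

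Bmpr1b was divided among starts. ENSMUST00000029948, which begins at position 141982264 on the minus strand of chromosome 3 behind the CpG-poor window printed above, had 73.5% in replicate 1 and 77.8% in replicate 2. ENSMUST00000106230, which begins upstream at 142169425, had 15.2% and 22.2%. It was the main alternative, but no window was available for its start. ENSMUST00000106232 and ENSMUST00000131273, which begin at 141931523 and 141931508 near the other printed window, had 4.87% and 6.44% in replicate 1 and 0% each in replicate 2. These shares rest on 11.36 and 7.27 estimated reads in replicate 1.

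**Figure D4:**
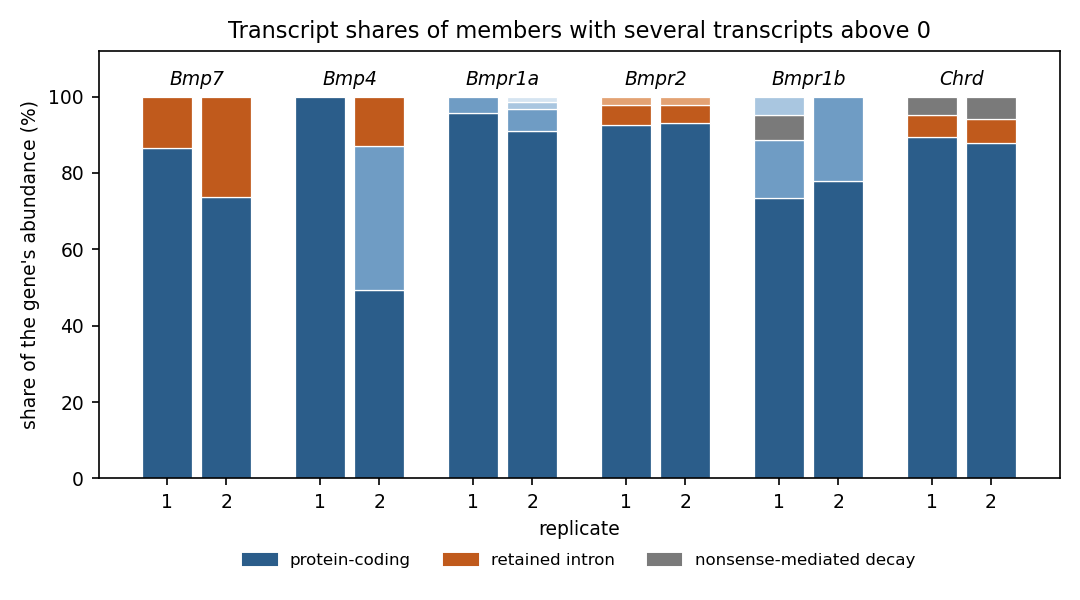
Share of abundance (%) by transcript in replicate 1 (left bar) and replicate 2 (right bar) for the 6 members with several transcripts above 0, in blue for protein-coding, orange for retained-intron and grey for nonsense-mediated-decay transcripts. Bmp4 is 100% in 1 transcript in replicate 1 and divided among 3 in replicate 2, and the orange share of Bmp7 is 13.4% and 26.2%.

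Reads of the members could be told from those of their relatives. None (0) of the 100-base stretches of the members' leading transcripts occurs on the same strand in a transcript of another gene, so BMP paralogs do not share such reads. On the opposite strand 4 members share stretches with a gene on the other strand. Bmp5 shares 47.8% of its stretches with Gm26903, listed at 0.06 and 0.02 TPM. Bmp6 shares 3.58% with Txndc5, a disulfide isomerase gene at 56.8 and 60.1 TPM. Bmpr1a shares 3.26% with Gm17110 (1.28 and 2.14 TPM), and Chrd 0.976% with Thpo (0.60 and 0.93 TPM). No source used here tells if the counts kept strands apart, so the levels of these 4 are uncertain to that extent, Bmp6 beside its abundant partner included. The Bmp6 model behind the counts is 2410 nt long, shorter than the 3593 nt model searched here. Bmp6 had whole counts in both libraries (52 and 121), as had the members that share no stretch. Bmp5 had 192.64 and 281.17, Bmpr1a 1682.72 and 2425.65, and Chrd 195.67 and 214. Whether reads were divided between the strands' genes was not tested.

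The member ligands stood above most other ligands of the family. Of 14 other BMP and GDF ligands 3 were detected, with a median of 0.185 TPM in replicate 1 and 0.150 TPM in replicate 2, against 100% of the 5 member ligands. They were Gdf11, a ligand of the activin branch (9.16 ± 0.0566), Gdf9 (2.81 ± 0.318) and Gdf10 (2.41 ± 0.806), and Bmp10 was listed at 0. Bmp7 exceeded 6 of the 7 that had enough reads to test, in both fits, and stood with Gdf11 (log2 ratio -0.10 ± 0.15, SE, adjusted p = 0.540). The share of all genes that differed from Bmp7, in either direction, was 83.7%. Of all genes past 1 TPM in both libraries 35.3% lay below Bmp7 by mean TPM.

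Bmpr2 stood below Acvr2a and Acvr2b. Bmpr2 averaged 9.57 TPM, against 32.9 ± 1.17 TPM for Acvr2a and 36.4 ± 3.67 TPM for Acvr2b, type II receptors that bind activins and BMPs. The log2 ratios of Bmpr2 over these were -1.78 ± 0.12 (SE, adjusted p = 1.37e-06) and -1.92 ± 0.13 (1.12e-06). Bmpr1a lay above the type I receptors Acvr1 (ALK2, 3.11 ± 0.205 TPM, log2 ratio 2.30 ± 0.16) and Acvrl1 (ALK1, known from endothelium, 4.25 ± 0.00707 TPM, 1.86 ± 0.15). It also lay above the pseudoreceptor Bambi (2.45) and Tgfbr3 (2.48). It lay below the co-receptors Rgmb (55.8 ± 1.8 TPM, log2 ratio -1.83 ± 0.10) and Rgma (-0.74), below their partner Neo1 (-0.51), and below Acvr2a (-1.07) and Acvr2b (-1.21). Bmpr2 was lower than 6 and higher than 4 of 10 in both fits, and Bmpr1a lower than 5, higher than 4 and not apart from Eng. The share of all genes that differed, in either direction, was 88.0% for Bmpr2 and 90.1% for Bmpr1a. Of all genes past 1 TPM in both libraries 37.4% lay below Bmpr2 and 48.8% below Bmpr1a by mean TPM.

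Several other extracellular modulators stood above Nog and Chrd. Fstl1, a follistatin-like glycoprotein (80.3 ± 2.4 TPM), Twsg1, which binds BMPs together with chordin (51.7 ± 3.30), and Nbl1, an antagonist of the DAN family (21.5 ± 4.89), led 21 other genes, 15 of which were detected. Nog differed from 15 of 18 in both fits and was lower than 11, beside 92.2% of all genes that differed from it in either direction in the fit against 1 member. Its log2 ratio over Twsg1 was -4.38 ± 0.17 (SE, adjusted p = 4.60e-08). Chrd differed from 14 of 18 and was lower than 9, beside 90.1% of all genes on the same count. Chrd averaged 2.73 TPM and Bmp1, the protease that cleaves chordin, 20.7 TPM (log2 ratio of Chrd over Bmp1 -2.87 ± 0.18, adjusted p = 9.57e-07).

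Most downstream genes were detected. Of 12 Smads and regulators 10 were detected, led by Smad1 (47.3 ± 0.219 TPM), Zeb2 (32.9 ± 2.14) and Skil (31.2 ± 3.44). The receptor Smad Smad9 was lowest at 0.125 ± 0.0212. Of 14 genes known as BMP targets 13 were detected, led by Id4 (175 ± 37.8), Id3 (156 ± 17.0) and Id2 (131 ± 14), and Msx2 was lowest (1.29 ± 0.0707). Smad6, an inhibitory Smad that BMP signals induce, was the gene that missed the bar, with 0.97 TPM in replicate 1 and 1.91 TPM in replicate 2, a scaled read ratio of 0.495 (0.355 to 0.674). Id and Msx genes answer to several signals, so their levels do not measure BMP signalling.

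**Figure D5:**
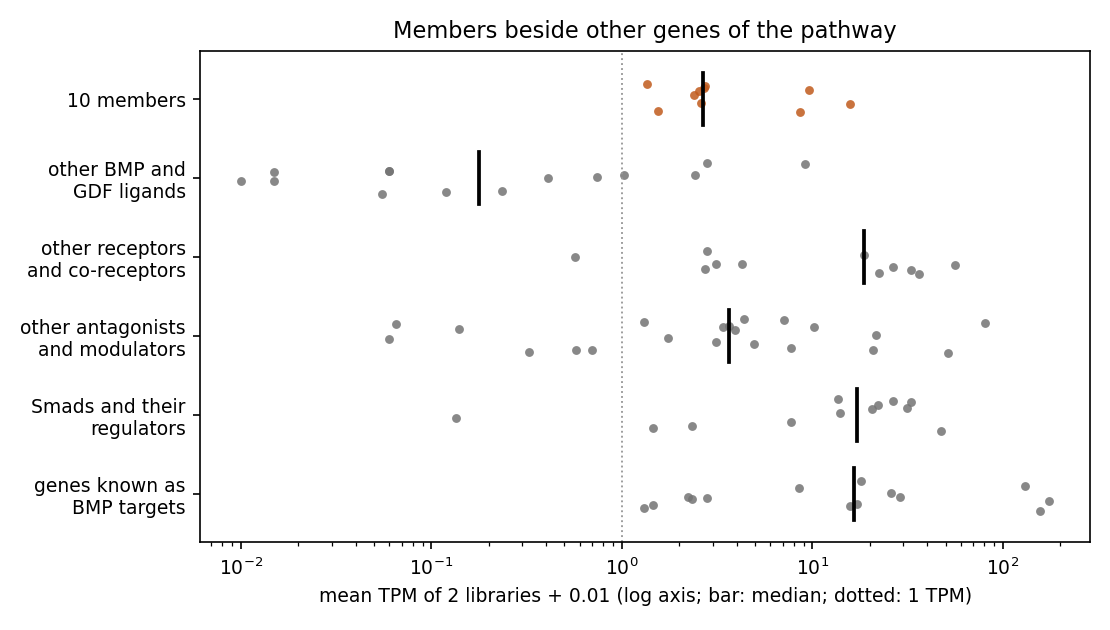
Mean TPM of both libraries plus 0.01 (log axis) for the 10 members (orange) and for 5 other lists of the pathway (grey), with 1 point a gene, a bar at each list's median and a dotted line at 1 TPM. The members lie between 1.35 and 15.7 TPM, and most other BMP and GDF ligands lie left of the dotted line.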

How the data were processed

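Per the labels, total RNA from midbrain of embryos at 13.5 days was sequenced in 2 libraries, and the text deposited with each names assembly mm10 and GENCODE annotation M4. The expected counts deposited by the authors are estimated reads per gene or transcript. The TPM values in the deposited tables are scaled by length, spike-ins included, and the deposited FPKM values, per the file headers, by length and aligned fragments. In the transcript tables, deposited percent values divide a gene's abundance among its transcripts. The aligner and quantifier: not given in the sources used here.

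Names and positions came from GENCODE M21 (GRCm38). Of 175 listed genes 1, Gdf1, found no match and is left out. Reads on genes numbered 31436613 in replicate 1 and 40215359 in replicate 2. Spike-ins took 2.22% and 4.06% of reads, and 5.36% and 9.39% of TPM. A chi-square of the counts of genes averaging 50 reads or more, 11.2 per degree of freedom, shows that the 2 libraries are not 1 library deposited again. Expected counts were rounded and scaled by TMM in edgeR 4.0.16.

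Pairs were tested with limma 3.58.1 over 17703 genes averaging 10 reads or more. The planned fit shares 1 member's error among all ratios to it, which makes its spread unreliable, so a fit with the spread estimated gene by gene (7.83 degrees of freedom) was added after seeing the data, and calls rest on both. Both fits were tested on data simulated against Bmpr1b only, where the planned fit recovered far fewer small differences than the added one. Differences well under 2-fold can thus be missed where both must call. Against the lowest members larger ones can be missed too. Chrd over Bmp2, at 2.01-fold, did not pass the planned limma fit (adjusted p = 0.0960). The members, the lists and the rule for named genes (the 3 highest and the lowest of a list, those past 2-fold, and members of small counts) were chosen with earlier results of these data known. With 2 libraries of 1 group, no genes were named for a like pattern.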

Additional observations from a re-analysis of the deposited data

How the results depend on the processing

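The 45 log2 ratios between members kept their direction under every alternative fit. The number of pairs that passed was 23 with a pseudocount of 1 or 0.01, with FPKM, without the filter on low values, with a TPM minimum of 1 and with 1 common length per gene (added after seeing the data), and 27 with no mean trend in the spread. That setting added Chrd, Bmp5, Bmp4 and Bmpr1b over Bmp2. A single library gives a ratio but no test, and 9 of the 22 pairs that did not pass in both fits change sign between the libraries. Detection of the members held at 0.5 TPM, and at 2 TPM it fell to 8 of 10, without Bmp2 and Bmp6, while other BMP and GDF ligands detected at 0.5 TPM numbered 5, against 3. The 1.5-fold rule took 2 members, against 0, and 475 of all genes, against 104, and with no filter on low counts 4947 genes passed 2-fold. No paired analysis was possible because the series has 1 group. Depth limits the lowest members, with 52 to 156 reads for Bmp6 and Bmp2, and n = 2 limits every spread.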
